A study of Drosophila melanogaster with 6 samples.

Results

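Translation factors carry the ribosome through initiation and elongation, and their transcripts were examined upon depletion of Hakai. This protein carries an E3 ubiquitin ligase domain and is part of the m6A writer complex. The genes were taken from the annotation as all protein-coding genes whose symbol begins with eIF (eukaryotic initiation factor) or eEF (eukaryotic elongation factor), without eIF4A3. This gave 52 genes, of which 50 were listed among the 17559 identifiers of the count files. The identifiers of eEF1alpha1 and eEF5 were not matched to a row of the files, and no value is given for them. Of the 50 genes, 43 had enough reads to be tested, among 7811 genes tested in all.

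The study depleted S2R+ cells, a Drosophila line of embryonic origin, by RNA interference. Hakai KD cells (3 libraries) received dsRNA against Hakai and control KD cells (3 libraries) received dsRNA against the bacterial gene LacZ. Per the labels both groups had 10 μg of dsRNA given 3 times over 6 days, and both carry the same passage numbers. Poly(A) RNA was sequenced, and the value of each gene is the number of reads counted on it. The labels number the replicates but do not say whether they are separate cultures, so that p-values measure the spread between these libraries.

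Initiation begins when eIF2, bound to GTP, brings the initiator tRNA to the small ribosomal subunit together with eIF1, eIF1A, eIF5 and the large complex eIF3. The eIF4 group finds the mRNA through its cap: eIF4E binds the cap, eIF4G is the scaffold, and the helicase eIF4A unwinds the leader with the help of eIF4B and eIF4H. After start codon recognition eIF5B joins the subunits, eIF2B reloads eIF2 with GTP, and elongation proceeds through eEF1, which delivers aminoacyl-tRNAs, and eEF2, which moves the ribosome along the mRNA. Phosphorylation of eIF2alpha and sequestration of eIF4E are the best known ways in which cells restrain these steps.

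The libraries held between 16041353 and 17288912 counts. Control KD replicate 1 stood apart, with a chi-square per degree of freedom of 11.4 and 14.7 against the other control libraries, which differed from each other by 2.25, while Hakai KD libraries differed by 4.88 to 8.10. It also had the lowest share of mitochondrial counts, 2.23%, against 3.22% to 3.97% in the other libraries. Without it 3 translation factor genes were called instead of 2, with log2 fold changes of 0.27 for eIF6, 0.13 for eIF3i and 0.13 for eIF3b. The targeted transcript was examined first. Hakai had 68.1, 72.6 and 77.8 normalized counts in Hakai KD replicates 1, 2 and 3, against 296, 329 and 298 in control KD replicates 1, 2 and 3 (log2 fold change -2.08, SE (SE) 0.094, adjusted p = 1.8e-07). This and all other adjusted p-values come from the quasi-likelihood test of edgeR. Normalized counts here and below are counts divided by the TMM-scaled size of their library and set to the mean library. As markers of this haemocyte-derived line 10 genes were listed, among which srp averaged 4007 normalized counts in Hakai KD and 4132 in control KD. NimC1 was near 0 (at most 6.31 in any library). Of the 9 tested, 5 were higher upon Hakai KD (Hml, Pxn, Ppn, He and fz) and 0 lower. Over all genes tested 7.58% were higher and 7.72% lower. The summed length-scaled level of the 10 genes was 200.3 to 202.7 TPM in Hakai KD and 182.0 to 197.3 TPM in control KD. In bulk libraries, more cells of a kind and more RNA per cell cannot be told apart, and the part of this shift in the results below was not tested. The summed level of 15 markers of other cell types, 13 of them in the files, ranged from 43.9 to 48.2 TPM in Hakai KD and from 42.1 to 47.5 TPM in control KD. Among these, nSyb, Syt1, Mhc, up, Fbp1, Lsp2 and Yp1 were too low to be tested. Others were clearly expressed, with means of 402 (elav), 1707 (Mef2) and 262 (bam) normalized counts in Hakai KD. In control KD these 3 genes averaged 419, 1627 and 250 normalized counts, and none of them was called.

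The translation factor transcripts spanned a wide range of levels. Levels are compared between genes per length, in TPM, here normalized counts per kilobase of annotated exon set to the same sum in every library. eEF2, the translocase, was the most abundant of the 50 genes, with 6568 ± 144 TPM in Hakai KD and 6953 ± 338 TPM in control KD (SD, n = 3 each). eEF1gamma, a structural subunit of the eEF1 complex, followed with 4614 ± 193 TPM in Hakai KD and 4569 ± 66.2 TPM in control KD (SD, n = 3 each). eEF1beta, a subunit that exchanges the nucleotide on eEF1alpha, reached 2179 ± 103 TPM in Hakai KD and 2081 ± 113 TPM in control KD (SD, n = 3 each). These 3 elongation factor genes stood above all initiation factors listed, while eEF1delta, eEF1alpha2 and eEFSec did not.

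Among initiation factors, eIF4A was the most abundant, with 1412 ± 39.4 TPM in Hakai KD and 1345 ± 37.4 TPM in control KD (SD, n = 3 each). eIF1, which guards start codon choice during scanning, had 1008 ± 28.3 TPM in Hakai KD and 1064 ± 36.5 TPM in control KD (SD, n = 3 each). eIF2beta had 965 ± 11.6 TPM in Hakai KD and 968 ± 31.6 TPM in control KD (SD, n = 3 each). eEF1delta had 963 ± 24.8 TPM in Hakai KD and 959 ± 13.7 TPM in control KD (SD, n = 3 each), close to eIF2beta. The SD covers the spread between libraries only, and error from the annotated length was not measured. The transcripts of the exchange factor eIF2B were all less abundant per length than those of its substrate eIF2. The eIF2B subunits ranged from 52.5 (eIF2Bgamma) to 106 (eIF2Bepsilon) TPM in Hakai KD and from 59.7 (eIF2Bgamma) to 106 (eIF2Bepsilon) TPM in control KD. The 3 subunits of eIF2 ranged from 218 (eIF2gamma) to 965 (eIF2beta) TPM in Hakai KD and from 216 (eIF2gamma) to 968 (eIF2beta) TPM in control KD. At the low end of the genes tested lay eIF4B, with 14.3 ± 0.753 TPM in Hakai KD and 15.1 ± 1.82 TPM in control KD (SD, n = 3 each), and eEFSec, the elongation factor for selenocysteine, with 3.74 ± 0.584 TPM in Hakai KD and 4.13 ± 0.2495 TPM in control KD (SD, n = 3 each).

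**Figure D1:**
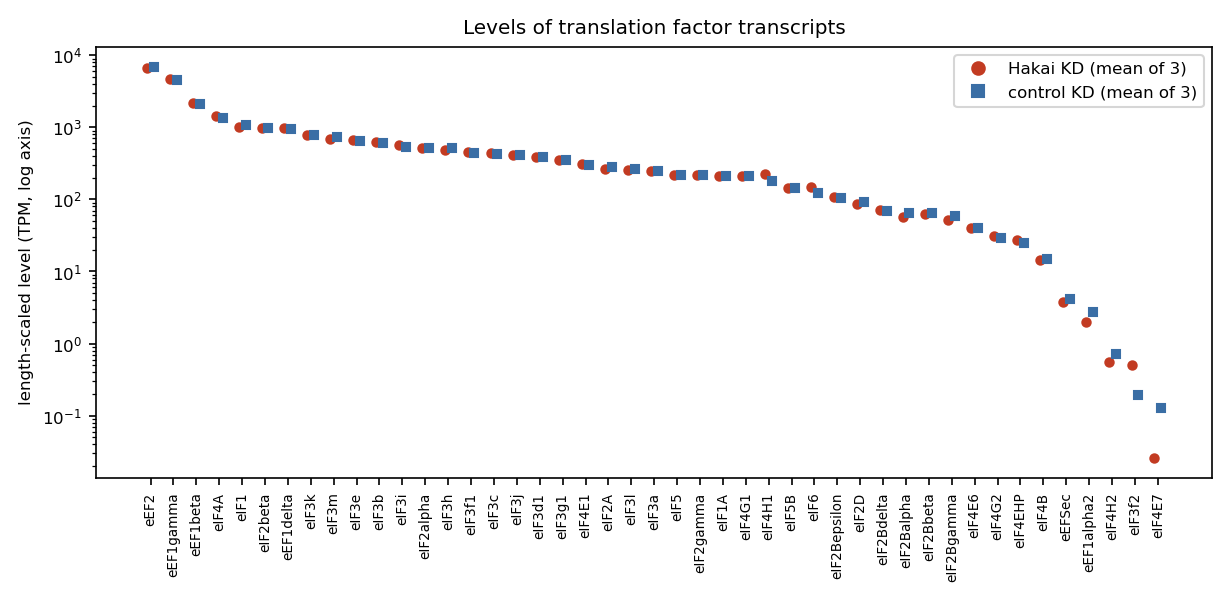
Mean length-scaled level, in TPM on a log axis, of the translation factor genes with counts in control KD, ordered by that level, for Hakai KD (circles, mean of 3 libraries) and control KD (squares, mean of 3 libraries). The order runs from eEF2 (6568 TPM in Hakai KD, 6953 TPM in control KD) down to genes with few counts, and both groups lie close together at most genes. The gene eIF3d2, with 1 count in Hakai KD, and the 4 genes without a count are not drawn.

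Expression upon Hakai KD was then compared with control KD. Of the 43 genes tested, 2 passed an adjusted p of 0.05 by edgeR, eIF6 and eIF3i, both higher. This is 4.65% of the genes tested here, against 15.3% of all 7811 genes tested. Hakai KD and control KD values were fully separate for 10 of the 43 genes, with Hakai KD higher in 9 of them and lower in 1. Over all genes tested the groups did not overlap in 34.9%, with Hakai KD higher in 17.0% and lower in 17.9%. An unadjusted p-value under 0.05 was found for 9 of the 43 genes, against 29.8% of all genes. In size, the log2 fold changes had a median of 0.054, against 0.084 over all genes tested. The 43 genes also had more reads, with a median of 5296 normalized counts against 756 over all genes tested. Their median SE was smaller, 0.037 against 0.052, and the part of this in the smaller size was not tested. The 95% interval of the log2 fold change lay within 0.2 of 0 in either direction for 30 of the 43 genes and within 0.5 for 40. The exceptions at 0.5 were eIF4H1, eIF4H2 and eEF1alpha2.

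The log2 fold changes leaned slightly upwards, with 30 positive and 13 negative values and a median of 0.042, against 0.00058 over all genes tested. This lean depends on the scaling. With libraries scaled by their totals alone, 23 were positive and 20 negative, with a median of 0.0069 against -0.035 over all genes. The distance between both medians was 0.042 under either scaling, but 0.024 without a filter on low counts and 0.028 without Hakai KD replicate 3. Without Hakai KD replicate 3, the number of genes called was 6, 5 higher and 1 lower, and the median was 0.026. Together the 50 genes took 2.64%, 2.71% and 2.74% of all counts in Hakai KD replicates 1, 2 and 3, against 2.76%, 2.67% and 2.73% in control KD replicates 1, 2 and 3, so that the total share of reads on these genes overlapped between the groups.

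**Figure D2:**
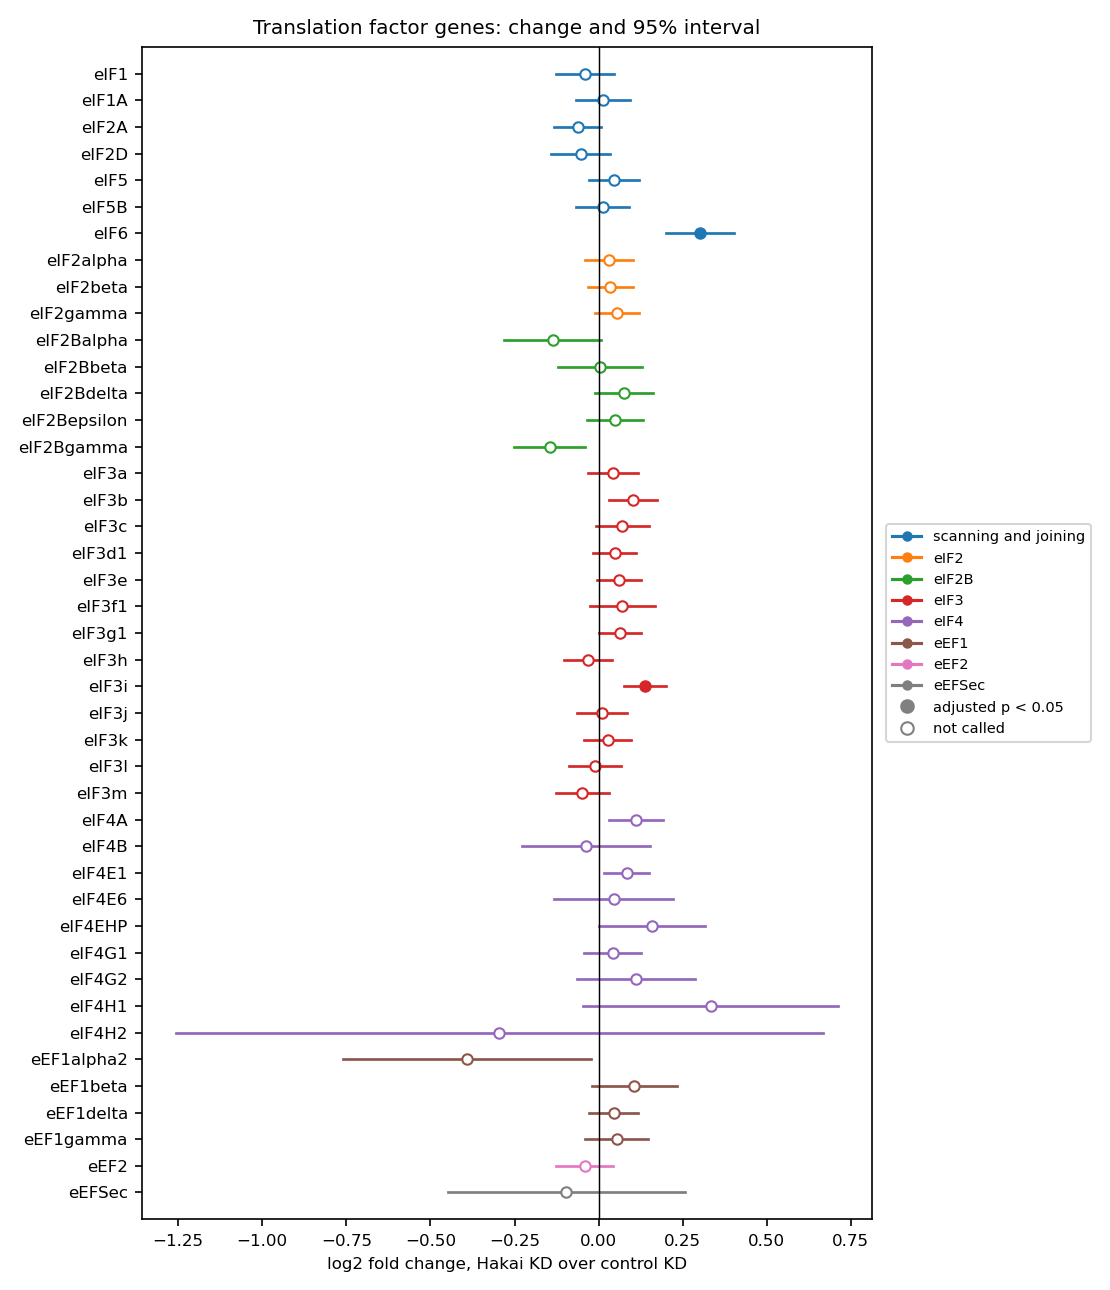
Log2 fold change of Hakai KD over control KD (x axis) for each of the 43 translation factor genes tested, by role, with its 95% interval from edgeR's quasi-likelihood test; filled circles mark an adjusted p-value under 0.05. The 2 filled points are eIF6 (0.30) and eIF3i (0.14), and the widest intervals belong to eIF4H2, eEF1alpha2, eIF4H1 and eEFSec.

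The largest called change was that of eIF6, which binds the large ribosomal subunit, acts in its maturation and keeps it from joining the small subunit prematurely. eIF6 (FBgn0034915) lies on the minus strand of chromosome 2R of BDGP6.54, from 23849246 to 23850301, in a single exon that overlaps no exon of another gene. It had 1202, 1269 and 1336 normalized counts in Hakai KD replicates 1, 2 and 3, against 989, 1043 and 1058 in control KD replicates 1, 2 and 3. Every Hakai KD library lay above every control library. The mean was 1269 ± 67.3 in Hakai KD and 1030 ± 36.2 in control KD (SD, n = 3 each), a log2 fold change of 0.30 (SE 0.046, adjusted p = 0.0016 by edgeR), or 23.2% higher. The call held in each of 15 alternative fits, with log2 fold changes from 0.26 to 0.34.

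The other factors that act in scanning, start codon recognition and subunit joining were not called. eIF1 had a log2 fold change of -0.040 (95% interval -0.13 to 0.047), and eIF1A, its partner in holding the scanning complex open, had 0.014 (-0.066 to 0.094). eIF5, the GTPase activator of eIF2, had a log2 fold change of 0.046 (-0.027 to 0.12), with exons of CG46312 overlapping on the same strand, and eIF5B had 0.012 (-0.067 to 0.091). eIF5B stood at 5215, 5090 and 5132 normalized counts in Hakai KD and 5352, 5056 and 4898 in control KD. eIF2A and eIF2D, which take part in alternative routes of initiator tRNA delivery and in recycling, had log2 fold changes of -0.062 (-0.13 to 0.0073) and -0.054 (-0.14 to 0.034). The groups overlapped in all 6 of these genes, and none had an unadjusted p-value under 0.05 (edgeR's quasi-likelihood test; the lowest was 0.075, for eIF2A). eIF6 was thus the only one of the 7 genes of this group to be called, in edgeR's test and in each alternative fit.

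The ternary complex and its exchange factor were examined next. The transcript of eIF2alpha, the subunit phosphorylated under stress, had 6199, 6482 and 6569 normalized counts in Hakai KD replicates 1, 2 and 3, against 6206, 6372 and 6273 in control KD replicates 1, 2 and 3. The groups overlapped, and the log2 fold change was 0.030 (95% interval -0.041 to 0.10). eIF2beta, which contacts eIF5 and eIF2B, had a log2 fold change of 0.035 (-0.032 to 0.10). eIF2gamma, the GTP-binding core, had 3890, 4011 and 3926 normalized counts in Hakai KD, against 3711, 3819 and 3865 in control KD. Its libraries did not overlap between the groups, but its log2 fold change of 0.054 missed the threshold (adjusted p = 0.26 by edgeR). Its exons overlap those of Su(var)3-9 on the same strand, which had 324 and 327 normalized counts on average in Hakai KD and control KD.

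Of the 5 eIF2B subunits 0 were called, and 1, eIF2Bgamma, had an unadjusted p-value under 0.05. eIF2Bgamma, which with eIF2Bepsilon forms the catalytic part of the complex, had 645, 658 and 703 normalized counts in Hakai KD replicates 1, 2 and 3, against 729, 723 and 766 in control KD replicates 1, 2 and 3. It was the only gene of the 43 with all Hakai KD values below all control KD values. Its log2 fold change was -0.15 (SE 0.048, adjusted p = 0.063 by edgeR). It passed the threshold in 2 of 15 alternative fits, with libraries scaled by their totals alone and without Hakai KD replicate 3. eIF2Balpha, a regulatory subunit that senses phosphorylated eIF2, had a log2 fold change of -0.14 (-0.28 to 0.0066), with 459, 501 and 454 normalized counts in Hakai KD, against 518, 480 and 559 in control KD. The remaining subunits had positive values, 0.0046 for eIF2Bbeta (-0.12 to 0.13), 0.076 for eIF2Bdelta (-0.011 to 0.16) and 0.048 for eIF2Bepsilon (-0.036 to 0.13).

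eIF3, the largest initiation factor, holds the small subunit, eIF4G and the mRNA together. Of 16 genes, 13 were tested, 1 was called higher and 0 lower, and 10 of the log2 fold changes were positive. The called gene was eIF3i, a subunit folded as a propeller of WD repeats that is attached to eIF3b. eIF3i (FBgn0015834) is encoded on the minus strand of 2L, from 4966367 to 4967775. It had 5570, 5597 and 5483 normalized counts in Hakai KD replicates 1, 2 and 3, against 5019, 4990 and 5118 in control KD replicates 1, 2 and 3. The spread within each group was narrow and the groups did not overlap. The mean was 5550 ± 59.6 in Hakai KD and 5042 ± 67.1 in control KD (SD, n = 3 each), a log2 fold change of 0.14 (SE 0.029, adjusted p = 0.0084 by edgeR), or 10.1% higher. The call held in each of 15 alternative fits, with adjusted p-values between 0.0059 and 0.046. Exons of CG34125 overlap eIF3i on the other strand, and CG34125 had a log2 fold change of -0.17 (adjusted p = 0.14 by edgeR).

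eIF3b, the RNA-binding scaffold that in yeast carries the counterparts of eIF3i and eIF3g1, had 13948, 13897 and 14080 normalized counts in Hakai KD replicates 1, 2 and 3, against 13470, 12757 and 12842 in control KD replicates 1, 2 and 3. The groups did not overlap. Its log2 fold change of 0.10 (SE 0.033, adjusted p = 0.059 by edgeR) missed the threshold and passed it in 3 of 15 alternative fits, namely DESeq2, limma-voom and the fit without control KD replicate 1. eIF3g1, the third gene of this peripheral module, had 2950, 2988 and 3036 normalized counts in Hakai KD, against 2907, 2844 and 2837 in control KD. The groups did not overlap here either, with a log2 fold change of 0.063 (adjusted p = 0.16 by edgeR). The values of eIF3b and eIF3g1 thus lay on the same side as that of eIF3i without being called. This was not particular to the module, as 10 of the 13 eIF3 genes tested had positive log2 fold changes.

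The other subunits were not called either. eIF3a, the largest subunit, had a log2 fold change of 0.042 (95% interval -0.031 to 0.12), and eIF3c, which forms the core with it, had 0.070 (-0.0077 to 0.15). eIF3e had 8359, 8190 and 8283 normalized counts in Hakai KD, against 8034, 7820 and 7958 in control KD, and eIF3d1, the subunit that can bind the cap of particular mRNAs in mammals, had 6428, 6502 and 6542 in Hakai KD, against 6304, 6374 and 6165 in control KD. Both were without overlap, at log2 fold changes of 0.060 (adjusted p = 0.20) and 0.047 (adjusted p = 0.31 by edgeR). eIF3f1 had 0.071 (-0.026 to 0.17), eIF3j, the loosely bound subunit, 0.010 (-0.065 to 0.085), and eIF3k 0.026 (-0.045 to 0.097). Negative log2 fold changes were found for eIF3h with -0.030 (-0.10 to 0.041), eIF3l with -0.011 (-0.087 to 0.066) and eIF3m with -0.048 (-0.13 to 0.031).

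Levels of the eIF3 subunits were also set against the median subunit of the same library, which leaves out the scaling between libraries. eIF3k and eIF3m were the most abundant, with 1.72 and 1.54 times the median subunit on average in Hakai KD, against 1.76 and 1.66 times in control KD. eIF3a and eIF3l were the least abundant, with 0.550 and 0.564 times in Hakai KD, against 0.554 and 0.589 times in control KD. eIF3i reached 1.35, 1.24 and 1.24 times the median subunit in Hakai KD replicates 1, 2 and 3, against 1.20, 1.22 and 1.18 times in control KD replicates 1, 2 and 3. The order of the outermost subunits was the same in both groups, and the relative levels of eIF3i, eIF3m and eIF3h did not overlap between them. Whereas eIF3i lay higher in Hakai KD, eIF3m lay lower, with 1.60, 1.49 and 1.55 times the median subunit in Hakai KD, against 1.66, 1.63 and 1.68 times in control KD. eIF3h lay lower as well, with 1.11, 1.08 and 1.09 times in Hakai KD, against 1.15, 1.18 and 1.14 times in control KD. The median subunit was eIF3c or eIF3f1 in each library, and both had positive log2 fold changes (0.070 and 0.071). In normalized counts, eIF3m and eIF3h overlapped between the groups. The ratios to the median subunit were not tested. This ratio per kilobase depends on the annotated exons and on fragmentation, and equal numbers of molecules cannot be read from it.

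**Figure D3:**
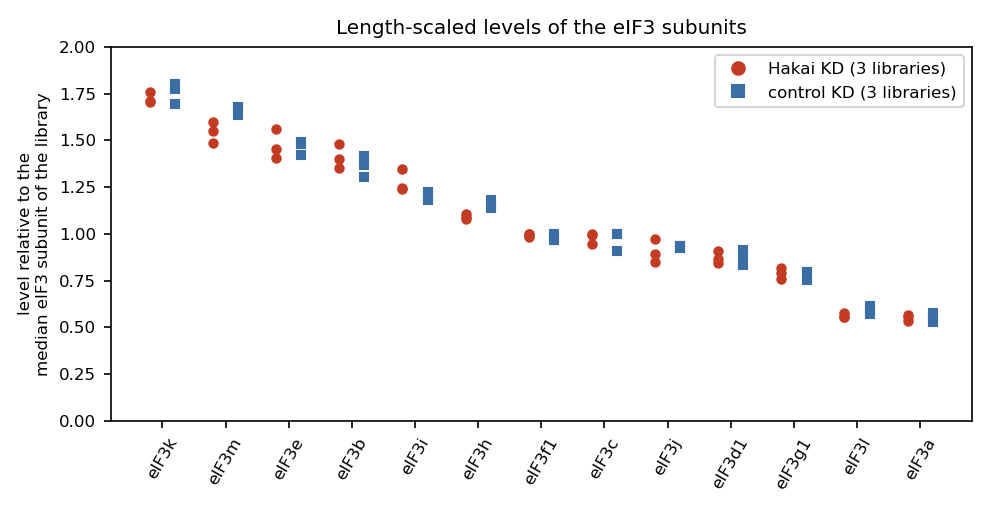
Length-scaled level of each eIF3 subunit divided by that of the median subunit of the same library (y axis, a ratio), with each of the 3 Hakai KD libraries (circles) and 3 control KD libraries (squares) drawn; the subunits are ordered by their control KD mean. eIF3k stands highest (1.72 in Hakai KD, 1.76 in control KD), eIF3a lowest (0.550 in Hakai KD, 0.554 in control KD), eIF3i lies higher in all Hakai KD libraries, and eIF3m and eIF3h lie lower in all of them.

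The cap-binding group was examined next. Of 13 genes, 9 were tested and 0 were called by edgeR's quasi-likelihood test, with 3 at an unadjusted p-value under 0.05 (eIF4A, eIF4E1 and eIF4EHP, all with positive log2 fold changes). DESeq2 and limma-voom each called 1 gene of the group, eIF4A. eIF4A had 27520, 29282 and 29582 normalized counts in Hakai KD replicates 1, 2 and 3, against 26704, 26379 and 26956 in control KD replicates 1, 2 and 3. The groups did not overlap, and the log2 fold change was 0.11 (SE 0.037, adjusted p = 0.065 by edgeR). It passed the threshold in 4 of 15 alternative fits. eIF4E1, the main cap-binding protein, had 5733, 5574 and 5654 normalized counts in Hakai KD, against 5298, 5249 and 5466 in control KD. Here too the groups did not overlap, with a log2 fold change of 0.083 (adjusted p = 0.089 by edgeR) and no call in any of 15 alternative fits. eIF4G1, the scaffold, had a log2 fold change of 0.042 (95% interval -0.044 to 0.13), and eIF4B, a helper of eIF4A with RNA-binding activity, had -0.037 (-0.23 to 0.15).

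eIF4H1, whose mammalian counterpart stimulates eIF4A, was the most variable of the well-expressed genes. It had 9171, 9705 and 5572 normalized counts in Hakai KD replicates 1, 2 and 3, against 5199, 7115 and 7104 in control KD replicates 1, 2 and 3. Hakai KD replicates 1 and 2 were high, Hakai KD replicate 3 fell among the control libraries, and control KD replicate 1 was the lowest of all. The log2 fold change of 0.33 (SE 0.17, adjusted p = 0.23 by edgeR) was not called. It was 0.54 without Hakai KD replicate 3, where it was called (adjusted p = 0.0025), and between 0.19 and 0.54 over the fits that left out 1 library. The fit without a filter on low counts called it as well (adjusted p = 0.040, at 0.33). The call for this gene thus depends on Hakai KD replicate 3 and on the filter.

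eIF4G2 and eIF4EHP also had their lowest Hakai KD value in replicate 3. eIF4G2, a paralogue of eIF4G1 known for its role in male germ cells, had 2449, 2541 and 1923 normalized counts in Hakai KD replicates 1, 2 and 3, against 2106, 2132 and 2168 in control KD replicates 1, 2 and 3 (log2 fold change 0.11, adjusted p = 0.38 by edgeR). eIF4EHP, a cap-binding repressor that displaces eIF4E from particular mRNAs, had 1567, 1495 and 1266 in Hakai KD, against 1227, 1266 and 1390 in control KD (log2 fold change 0.16, adjusted p = 0.17 by edgeR). Without Hakai KD replicate 3 the log2 fold changes were 0.22 and 0.24 and both were called. Both genes share exon sequence with another gene on the same strand, eIF4G2 with CG33111 and eIF4EHP with Syx1A. Syx1A was itself higher upon Hakai KD (log2 fold change 0.40, adjusted p = 0.0014), so that reads of eIF4EHP and Syx1A in the shared part cannot be told apart.

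**Figure D4:**
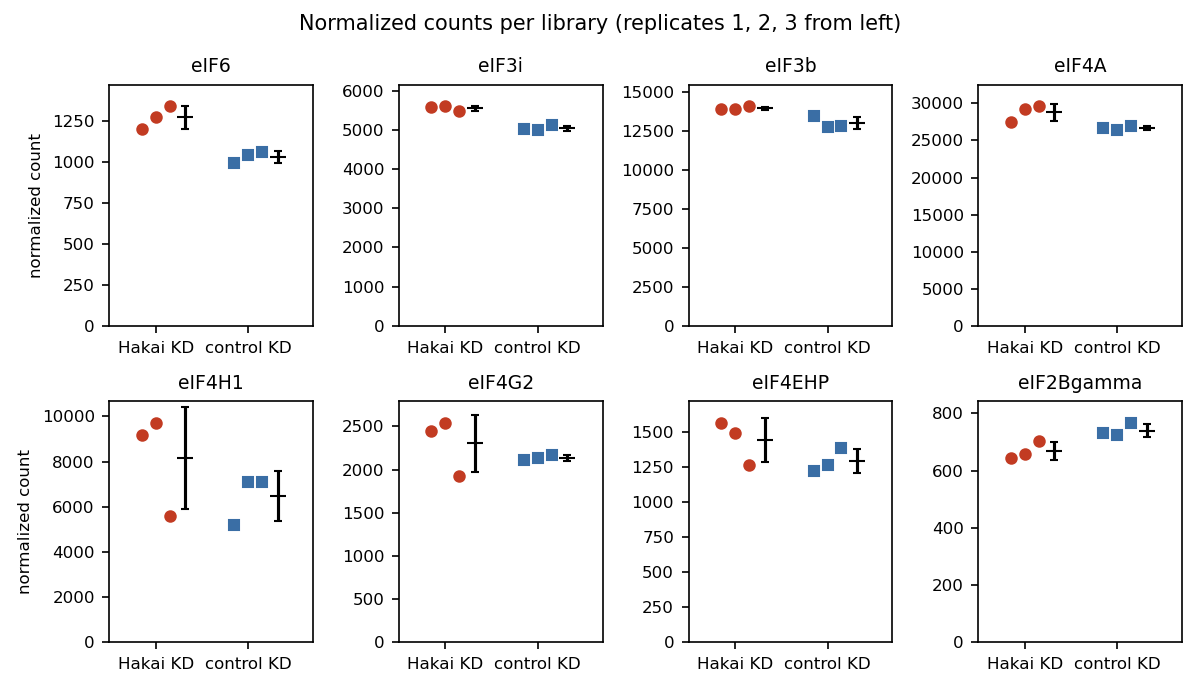
Normalized counts (y axis, from 0) of 8 translation factor genes in each library, with replicates 1, 2 and 3 of Hakai KD (circles, left) and of control KD (squares, right) and the mean ± SD of each group beside them. eIF6 (1202 to 1336 in Hakai KD, 989 to 1058 in control KD) and eIF3i are without overlap and called, while eIF4H1 shows 1 low Hakai KD library (5572) among 2 high ones.

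The elongation factors were not called. eEF2 had 160827, 164011 and 170148 normalized counts in Hakai KD replicates 1, 2 and 3, against 173747, 164441 and 171412 in control KD replicates 1, 2 and 3. The groups overlapped, with a log2 fold change of -0.042 (95% interval -0.13 to 0.044). eEF1gamma had a log2 fold change of 0.054 (-0.039 to 0.15), eEF1beta 0.11 (-0.021 to 0.23) and eEF1delta 0.045 (-0.027 to 0.12). eEF1alpha2, a paralogue of the main aminoacyl-tRNA carrier that is scarce here, had 39.6, 40.2 and 52.6 normalized counts in Hakai KD, against 51.0, 58.6 and 64.2 in control KD. Its log2 fold change of -0.39 was the largest in size among the 43 genes, but with an SE of 0.17 and overlapping groups it was not called (adjusted p = 0.14 by edgeR). eEFSec had 43.7, 58.9 and 46.3 normalized counts in Hakai KD, against 53.9, 49.9 and 55.9 in control KD. At this depth its log2 fold change of -0.096 has an interval from -0.45 to 0.26, which leaves changes of either sign possible.

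Several factors have further gene copies, some of which had few or no reads in S2R+ cells. eIF3g2, eIF4E3, eIF4E4 and eIF4E5 had 0 counts in all 6 libraries, and 3 more genes, eIF3d2, eIF3f2 and eIF4E7, stayed below the filter on low counts. With 3 counts per group as the floor, eIF3g1 was at least 2807-fold more abundant per length than eIF3g2 in Hakai KD and at least 2772-fold in control KD. In the same way eIF4E1 was at least 2590-fold more abundant than eIF4E3 in Hakai KD and at least 2521-fold in control KD. These limits cover counting error only. eIF3d2 had 1 count in Hakai KD, against 19171 on eIF3d1, and 0 counts in control KD, where eIF3d1 was at least 7079-fold more abundant per length.

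eIF3f2 had 13 counts over the Hakai KD libraries and 5 over the control KD libraries. eIF3f1 was 876-fold more abundant per length in Hakai KD (95% counting interval 512 to 1647) and 2235-fold in control KD (957 to 6884). These intervals overlap. eIF4H2 had 26 counts in Hakai KD and 33 in control KD, so that eIF4H1 exceeded it 401-fold per length in Hakai KD and 257-fold in control KD. The log2 fold change of eIF4H2 was -0.30, with a 95% interval of -1.26 to 0.67 at this depth. eIF4E7 had 1 count in Hakai KD and 5 in control KD. eIF4E6 and eIF4EHP were the only other cap-binding proteins with a clear level. eIF4E6 stood at 12.9% of eIF4E1 per length in Hakai KD and 13.3% in control KD, and eIF4EHP at 8.90% in Hakai KD and 8.43% in control KD. The level of eIF4EHP depends on the length used and on the exons shared with Syx1A. With the longest annotated transcript as the length, eIF4EHP had 37.1 TPM in Hakai KD and 34.2 TPM in control KD. eIF4E6 then had 38.1 TPM in Hakai KD and 38.1 TPM in control KD. The log2 fold change of eIF4E6 was 0.045 (95% interval -0.13 to 0.22). eIF4G2 stood at 14.8% of eIF4G1 per length in Hakai KD and 14.0% in control KD.

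The factors were then set beside other genes of translation control, a list of 25 genes of which 22 were tested. Of these 8 were called by edgeR's quasi-likelihood test, 4 higher and 4 lower, against 15.3% of all genes tested, with 7.58% called higher and 7.72% lower. The number falls to 3 without Hakai KD replicate 1, to 4 without Hakai KD replicate 2, control KD replicate 2 or control KD replicate 3, and to 5 without control KD replicate 1. The list was chosen with earlier results of these data known and was not matched in read depth. Its share of called genes can therefore not be weighed against that of all genes. Higher upon Hakai KD were bel, a DEAD-box helicase that acts on mRNA leaders, with 7736, 8110 and 8255 normalized counts in Hakai KD, against 7009, 7209 and 7005 in control KD (log2 fold change 0.18, adjusted p = 0.0043), and the release factor eRF3, with 7868, 7441 and 7668 in Hakai KD, against 6678, 7003 and 6876 in control KD (log2 fold change 0.16, adjusted p = 0.0084 by edgeR). Both calls held in each of 15 alternative fits. NAT1, a relative of eIF4G without the eIF4E binding part, had 16966, 16611 and 16401 normalized counts in Hakai KD, against 15442, 15367 and 15216 in control KD (log2 fold change 0.12, adjusted p = 0.025). PPP1R15, which directs a phosphatase to eIF2alpha, had 2939, 2926 and 2922 in Hakai KD, against 2724, 2596 and 2751 in control KD (log2 fold change 0.12, adjusted p = 0.022 by edgeR). The groups did not overlap in these 4 genes.

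Dph1, which starts the diphthamide modification of eEF2, showed the largest change of the list. It had 1471, 1635 and 1565 normalized counts in Hakai KD replicates 1, 2 and 3, against 2238, 2070 and 2010 in control KD replicates 1, 2 and 3, and all Hakai KD values lay below all control KD values. The mean was 1557 ± 82.4 in Hakai KD and 2106 ± 118 in control KD (SD, n = 3 each), a log2 fold change of -0.44 (SE 0.050, adjusted p = 2.0e-04 by edgeR), called in each of 15 alternative fits. Dph2 and Dph5, which act in the same modification, were not called, with log2 fold changes of -0.043 (95% interval -0.13 to 0.044) and 0.078 (-0.025 to 0.18). Dhps, which starts the hypusine modification of eEF5, had 244, 271 and 277 normalized counts in Hakai KD, against 310, 315 and 308 in control KD (log2 fold change -0.24, adjusted p = 0.034). nero, which completes that modification, was not called, at 0.071 (-0.014 to 0.16).

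Of the regulators of eIF4E, mxt, a scaffold that binds it, and Thor, the binding protein that sequesters it, were called lower. mxt had 763, 811 and 818 normalized counts in Hakai KD, against 887, 880 and 878 in control KD (log2 fold change -0.15, adjusted p = 0.035 by edgeR). Thor had 315, 408 and 342 in Hakai KD, against 493, 405 and 436 in control KD (log2 fold change -0.32, adjusted p = 0.044 by edgeR), and its groups overlapped, with Hakai KD replicate 2 just above control KD replicate 2. The calls of mxt and Thor were lost in 5 of the 6 fits that left out 1 library for mxt and in 4 of the 6 for Thor, with log2 fold changes between -0.17 and -0.11 for mxt and between -0.44 and -0.24 for Thor. Dhps, NAT1 and PPP1R15 were likewise lost in 5, 4 and 4 of these fits. With all libraries, DESeq2 called 6 genes of the list and did not call mxt (adjusted p = 0.19), Dhps (adjusted p = 0.18) or PPP1R15 (adjusted p = 0.072). NAT1 and PPP1R15 were not called with libraries scaled by their totals alone (adjusted p = 0.11 and 0.10 by edgeR), nor was NAT1 by the likelihood ratio test (adjusted p = 0.080). The eIF2alpha kinases PEK and Gcn2 had log2 fold changes of -0.0040 (95% interval -0.089 to 0.081) and 0.0078 (-0.075 to 0.091), and the eIF4E kinase Lk6 had -0.036 (-0.11 to 0.044).

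**Figure D5:**
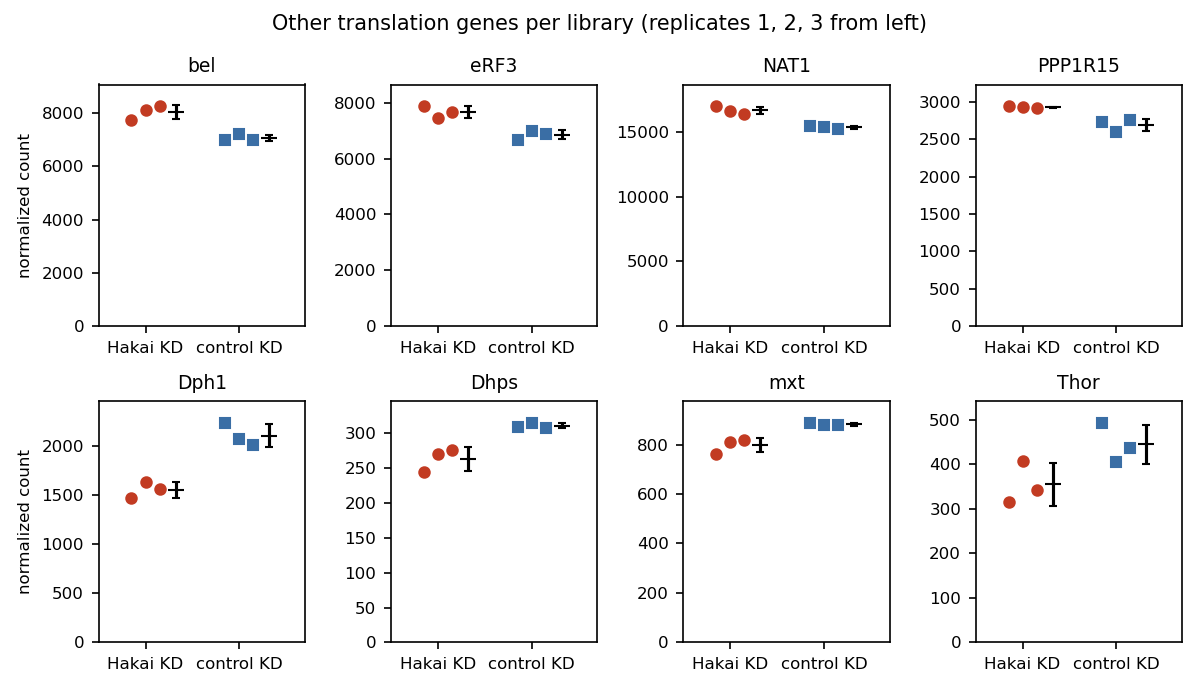
Normalized counts (y axis, from 0) of the 8 other translation genes called, in each library, with replicates 1, 2 and 3 of Hakai KD (circles, left) and of control KD (squares, right) and the mean ± SD of each group. bel, eRF3, NAT1 and PPP1R15 lie higher in Hakai KD, Dph1 (1471 to 1635 in Hakai KD, 2010 to 2238 in control KD), Dhps and mxt lower, and Thor overlaps between the groups.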

How the data were processed

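The authors aligned 85 bp single reads to the fly genome (Ensembl release 90) using STAR, assigned them to genes using featureCounts and deposited counts per gene, neither normalized nor pooled (STAR 2.5.1b and featureCounts 1.5.1 per the submitters' processing notes). The strand setting is not given in the sources used here. Symbols, positions and exons came from Ensembl release 115 (BDGP6.54), a later annotation of the assembly the labels name, BDGP6. It names 17253 of the 17559 identifiers. Another 306 have no symbol there. The genes and lists were chosen with earlier results of these data known.

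The groups were tested using edgeR 4.0.16 under R 4.3.3 (filterByExpr with a minimum count of 10 and a minimum total of 15, TMM factors, quasi-likelihood test without covariates, Benjamini-Hochberg adjustment over all genes tested, threshold 0.05), and the fit was also run on simulated data. Standard errors were derived from the F statistic (size of the log2 fold change over root F) and 95% intervals from the t distribution, and both are approximate. Length-scaled levels divide normalized counts by the union of annotated exons. Genes described singly were all members called, the most abundant of each role, paralogue pairs, those under the filter and the called genes of the second list, and the other members were added to account for all of them. Uncalled genes of the second list were named after their values were seen. Alternatives were DESeq2 1.42.0, the likelihood ratio test, limma-voom (limma 3.58.1), other scalings and filters, a replicate block and omission of each library in turn. Splicing and protein data were not used here.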

Additional observations from a re-analysis of the deposited data

How the results depend on the processing

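The number of translation factor genes called, 2 with all libraries in edgeR's quasi-likelihood test, was 4 with DESeq2, limma-voom and no filter on low counts, 4 of them higher in each case, and with library size alone 1 gene was lower. It ranged from 2 to 6 over the fits that left out 1 library, with 2 to 5 higher and 0 to 1 lower. eIF6 and eIF3i were called in every fit. The median log2 fold change was 0.0069 with library size alone and ranged from 0.026 to 0.050 over the fits that left out 1 library. Of the second list, 5 genes were called with the replicate block, which lost Thor (adjusted p = 0.069), mxt (0.052) and Dhps (0.052 by edgeR), and 3 to 8 with 1 library left out. Same-numbered replicates did not deviate together (correlations of -0.076, -0.033 and -0.075). With 3 libraries per group this cannot show whether they were handled together. The replicate block called 2 translation factor genes, as without it. Scaling by library size alone turned the sign, with -0.021 for eIF1A, -0.0049 for eIF2alpha, -0.031 for eIF2Bbeta, -0.00072 for eIF2beta, -0.025 for eIF3j, -0.0091 for eIF3k and -0.024 for eIF5B, and with no filter -0.00091 for eIF2Bbeta. Over the fits that left out 1 library, signs turned for eIF3j (-0.011 to 0.036), eIF3l (-0.037 to 0.016), eIF4B (-0.087 to 0.043), eIF2Bbeta (-0.048 to 0.049), eIF4E6 (-0.0052 to 0.10), eIF4H2 (-0.68 to 0.082), eIF1A (-0.016 to 0.051), eIF1 (-0.065 to 0.0019) and eIF5B (-0.016 to 0.047). None of these genes was called, and the cause was not tested. With the longest annotated transcript as the length, chosen after seeing the data, the level of eIF4EHP in control KD was 34.2 instead of 25.2 TPM. Hakai stayed between -2.13 and -2.03.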

Other observations

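The library pattern of eIF4H1, low in Hakai KD replicate 3 and in control KD replicate 1, recurred in a small set of other genes, which was looked for after the values of eIF4H1 were seen. Of 6506 tested genes averaging 100 or more normalized counts, 18 lay at least 0.3 below their group mean in Hakai KD replicate 3 and at least 0.2 below it in control KD replicate 1 on the log2 scale, eIF4H1 included. The mirror pattern, high in both libraries, was found in 1 gene, and a pattern high in one and low in the other in 0. These counts cannot be weighed against the 18, as the limits were set after the values of eIF4H1 were seen. Deviations were also taken from the log2 of the mean count, so that equal limits are reached more easily below it than above. Among the 18 was pAbp, the cytoplasmic poly(A)-binding protein that contacts eIF4G, with 29600, 30963 and 14986 normalized counts in Hakai KD replicates 1, 2 and 3, against 15016, 21880 and 22375 in control KD replicates 1, 2 and 3. Its log2 fold change was 0.35 (SE 0.22, adjusted p = 0.32 by edgeR). Unr, an RNA-binding protein that regulates translation of msl-2 mRNA, had 719, 770 and 343 normalized counts in Hakai KD, against 217, 361 and 344 in control KD. Unr was called higher, with a log2 fold change of 1.00 (SE 0.26, adjusted p = 0.024 by edgeR), although its groups overlapped. Also called higher were FBgn0262735, which has no symbol here (adjusted p = 0.031), and lncRNA:CR43963 (adjusted p = 3.5e-04 by edgeR). The rest of the set was not called, among them Mnt, tna, mahe, scyl, ct and sty. The mitochondrial transcripts mt:ND3 and mt:ND4 met both limits but, unlike eIF4H1, were low in Hakai KD replicate 2 as well. In Hakai KD replicates 1, 2 and 3, mt:ND3 had 3197, 1643 and 1396 normalized counts and mt:ND4 had 13292, 7933 and 7749. Hakai KD replicate 3 had 16041353 counts, 3.34% of them mitochondrial. Control KD replicate 1 had 16921435 counts and, at 2.23%, the lowest mitochondrial share of the 6 libraries, the others lying between 3.22% and 3.97%. The part of these differences in the pattern was not tested.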
